A study of Mus musculus with 12 samples.

Results

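The genes described here encode factors that build ribosomes: subunits of RNA polymerase I, proteins of small nucleolar ribonucleoproteins (snoRNPs), assembly factors of both ribosomal subunits, and the RNA exosome. They were chosen by symbol, as all genes named Nop, Nol, Utp, Rrp, Polr1 or Exosc with a number or letter, together with Pdcd11, Rbm28, Bop1, Pes1, Wdr12, Ncl, Fbl, Dkc1, Imp3, Imp4, Bms1 and Rrs1, and without Nol3, Nol4 and Nol4l, which share a prefix only. This gave 66 symbols. Of these, 65 were among the 22034 symbols of the footprint table, 62 among the 49997 of the RNA table, and 61 in both. Polr1f, Polr1g, Polr1h and the antisense RNA Polr1has had footprint values only, and the pseudogene Utp14b-ps1 had an RNA row only, with 1 count in a single library. Exosc6 was listed at 0 in every footprint library, although its RNA counts were 2738 to 3882 per library. The low-count filter kept 64 members for footprints, 61 for RNA and 60 for footprints per RNA.

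The cells were mouse embryonic stem cells (ES-E14TG2a), all carrying a dTAG degron on eRF1, the release factor that recognises stop codons. dTAG-13 directs tagged proteins to degradation. Cells were untreated or received 500 nM dTAG-13 for 1 h. Ribosome footprints, the mRNA pieces protected by ribosomes, were sequenced from 4 groups: wild type untreated, wild type treated, Gcn2 knockout untreated and Gcn2 knockout treated. Gcn2, encoded by Eif2ak4, responds to amino acid shortage and stalled ribosomes by phosphorylating eIF2, which lowers initiation. Poly(A) RNA was sequenced for wild-type cells only, untreated and treated. Each group held 2 biological replicates, A and B, and the study 12 libraries. The knockout cells carry the same tag. The labels name no vehicle-treated and no untagged treated cells, so effects of the compound and of eRF1 loss cannot be told apart, and they do not say how many clones were used.

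Ribosome assembly starts in the nucleolus, where RNA polymerase I transcribes the precursor of the large rRNAs. Box C/D snoRNPs, with the methyltransferase fibrillarin (Fbl), and box H/ACA snoRNPs, with the pseudouridine synthase dyskerin (Dkc1), modify the precursor, and the small subunit processome, to which most Utp proteins belong, folds and cuts its first part. Large subunit factors such as the Pes1-Bop1-Wdr12 complex process the remainder, and the exosome trims and degrades RNA from its 3′ end. Growing stem cells make many ribosomes, and their nucleoli are prominent.

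Promoter sequence was examined because many of these genes are transcribed together in growing cells. RefSeq windows on GRCm38.p6, from 250 bases before to 50 bases after an annotated start, were found for 50 members. The E-box CACGTG, whose letters are the same on both strands, was present in the windows of 11 of the 50 (22%). It was present for 2187 of 27025 genes with a window (8.09%) and for 1164 of the 9704 such genes tested for footprints (12%). It was found for 8 of 20 small subunit factors (40%), 2 of 12 large subunit factors and 1 of 8 exosome genes, and for 0 of 5 RNA polymerase I and 0 of 5 snoRNP genes. Among 94 other ribosome assembly genes with a window, 19 (20.2%) held it. These are matches of letters, with no test and no evidence of binding. Below are the 100 bases before the start of 4 genes whose footprints rose in wild-type cells (Ncl, Utp20, Polr1a and Nop2), of Rbm28, whose changes in the 2 genotypes had opposite signs, and of the exosome gene Exosc5, 5′ to 3′ on the gene's strand. Capitals mark CACGTG.
Ncl, chr1:86359456-86359555, minus strand: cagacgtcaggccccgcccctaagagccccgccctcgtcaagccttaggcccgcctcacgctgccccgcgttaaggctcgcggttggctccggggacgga
Utp20, chr10:88826815-88826914, minus strand: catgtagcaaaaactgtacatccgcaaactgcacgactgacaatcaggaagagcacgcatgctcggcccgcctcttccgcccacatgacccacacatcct
Polr1a, chr6:71908953-71909052, plus strand: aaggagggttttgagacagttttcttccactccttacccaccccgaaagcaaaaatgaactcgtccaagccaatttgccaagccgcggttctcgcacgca
Nop2, chr6:125131783-125131882, plus strand: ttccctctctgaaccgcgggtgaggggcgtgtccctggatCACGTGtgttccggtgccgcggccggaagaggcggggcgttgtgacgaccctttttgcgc
Rbm28, chr6:29164725-29164824, minus strand: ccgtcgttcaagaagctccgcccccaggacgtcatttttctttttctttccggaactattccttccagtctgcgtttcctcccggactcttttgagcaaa
Exosc5, chr7:25659053-25659152, plus strand: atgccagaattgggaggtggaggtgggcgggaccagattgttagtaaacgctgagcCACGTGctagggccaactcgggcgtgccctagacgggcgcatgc
The first base of the motif lies 60 bases before the start in Nop2 and 44 before it in Exosc5. In Utp20 it lies at base 38 after the start, outside the stretch printed.

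Footprint libraries held 7874804 (treated wild type A) to 19691716 counts and RNA libraries 17462458 to 24256097. Levels below are CPM, counts scaled to a common total on TMM-adjusted library sizes, and a change is the log2 difference between treated and untreated. CPM are shares of a library, so a change common to all mRNAs is not seen, and fewer cells and less RNA per cell cannot be told apart. The members took 0.828% (A) and 0.876% (B) of footprint counts in untreated wild-type cells and 1.01% in both treated libraries. In the knockout these shares were 0.874% to 0.907% untreated and 0.871% to 0.888% treated, and in RNA 1.17% to 1.20% throughout. Ncl alone held 19658 of the 163079 member footprint counts in untreated wild type A and 21650 of 149466 in B. In treated wild type it held 14796 of 79154 (A) and 27753 of 142423 (B), so 1 gene weighs heavily on these shares. Marker levels were summed as CPM on library totals without the TMM adjustment. In footprints 8 stem cell markers summed to 8650 to 9700 CPM, against 2.59 to 5.85 for 4 primitive endoderm markers and 4.09 to 9.15 for 4 fibroblast markers. In RNA the sums were 5040 to 5180, 2.68 to 3.84 and 3.59 to 4.58 CPM. The stem cell marker Pou5f1 had only 85 to 164 RNA counts per library, against 7898 to 27147 footprint counts. Eif2ak4 had 27.7 and 29.4 CPM in untreated wild-type and 2.46 and 2.33 CPM in untreated knockout libraries, a difference of -3.57 (adjusted p = 8.19e-06) in the direction of the genotype labels. The labels' column entry for treated knockout B repeats that of A, so its column was identified from the title's letter.

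The first comparison asked how the members' footprints changed in wild-type cells over the hour of dTAG-13. Footprints rose for 8 of 64 members (12.5%): Pdcd11, Ncl, Utp20, Utp14b, Nop2, Bms1, Polr1a and Rrp12. No member fell. Over all 12267 genes tested, 2.94% rose and 1.94% fell (two-sided quasi-likelihood test of edgeR, with Benjamini-Hochberg adjusted p under 0.05 taken as passing). The median change was 0.12 over the members and -0.01 over all genes, and 47 members (73.4%) lay above 0, against 48.8% of all genes. At an unadjusted p under 0.05, 20 members were higher and 3 lower, against 10.1% higher and 8.98% lower over all genes.

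**Figure D1:**
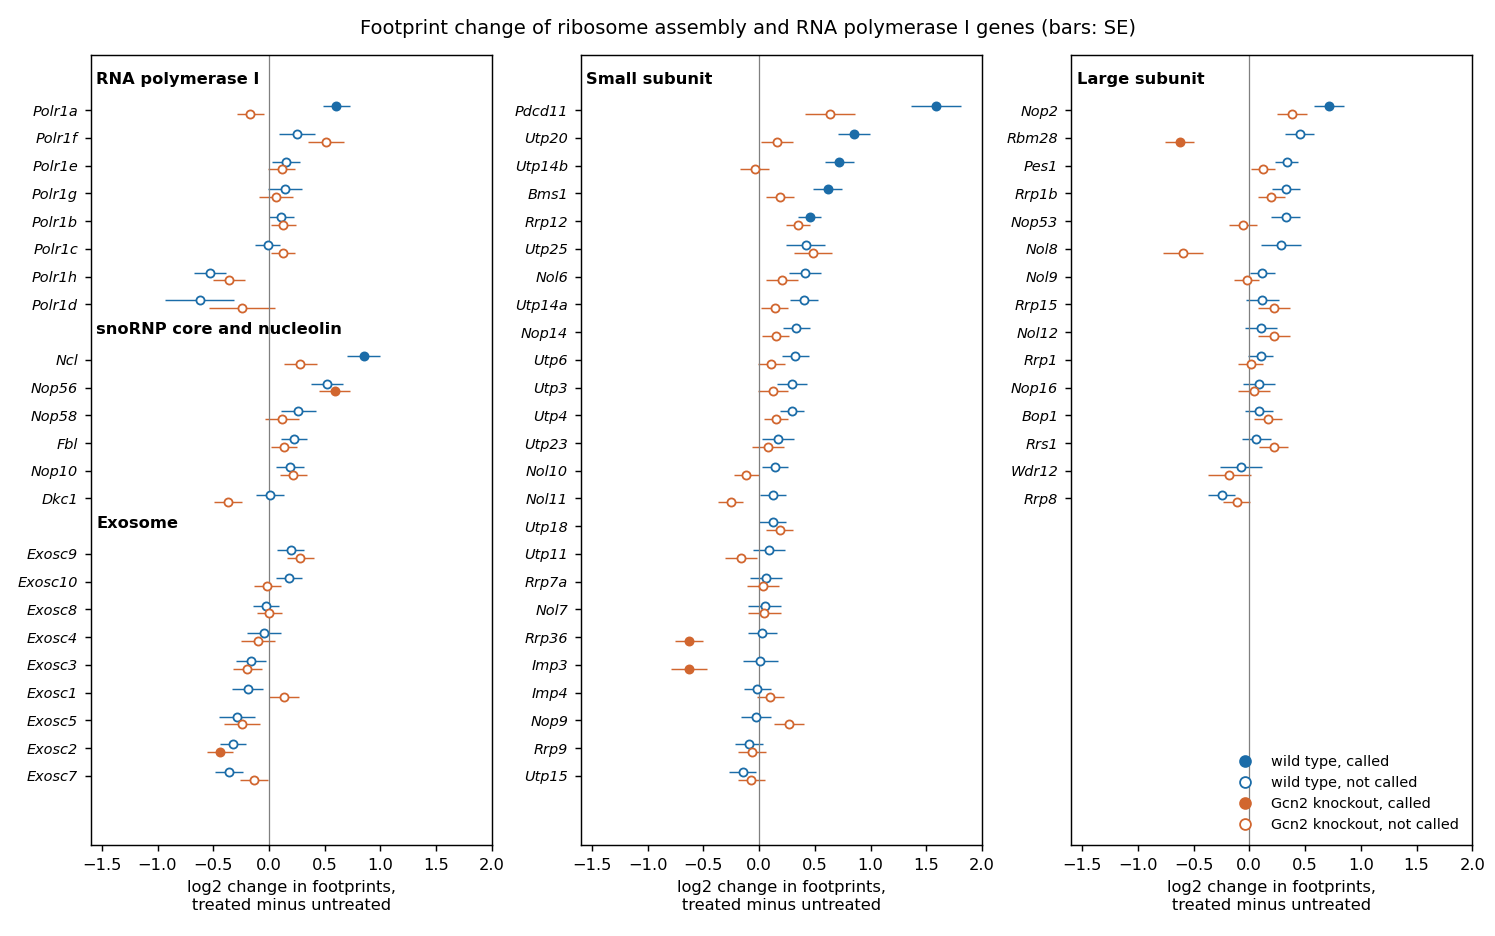
The horizontal axis gives the log2 change in footprints, treated minus untreated, for 63 members grouped by role, with bars of 1 SE and filled points for calls at an adjusted p under 0.05. Wild-type points (blue) for small subunit factors and snoRNP proteins lie mostly to the right of 0 and those of the exosome mostly to the left, and Rbm28 lies on opposite sides in the 2 genotypes.

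Of the 8 RNA polymerase I genes, 1 rose, with a group median of 0.13. Polr1a, the largest subunit, had 157 (A) and 177 (B) CPM untreated and 273 and 235 CPM treated, a change of 0.60 (SE 0.118, adjusted p = 0.0123). Both treated libraries lay above both untreated ones, which 2 libraries per group can also give without a change. Polr1b, the second largest subunit, went from 207 and 217 to 228 and 231 CPM, a change of 0.11 (SE 0.111, adjusted p = 0.660) that did not pass. Polr1d, a small subunit shared with RNA polymerase III, had 9.59 and 8.87 CPM untreated and 9.02 and 3.72 CPM treated. Its change was -0.62 with a wide SE of 0.314 (adjusted p = 0.309), and treated A lay within the untreated range. Without treated A the change was -1.31 and passed (adjusted p = 0.0297). Polr1h, another small subunit, had 61.2 and 51.3 CPM untreated and 41.9 and 36.4 CPM treated. Its change of -0.53 (SE 0.144) just missed the threshold with an adjusted p of 0.0545. The antisense RNA Polr1has was counted at 4.20 and 4.58 CPM untreated and 4.11 and 4.43 CPM treated (-0.03, SE 0.267), and without a stated use of strand its reads and those of Polr1h cannot be told apart.

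The 6 genes of snoRNP proteins and nucleolin all had changes above 0 in wild-type cells (all genes 48.8%), with a median of 0.25, and 1 passed. Ncl encodes nucleolin, an abundant nucleolar RNA-binding protein that acts in rRNA transcription and early processing. It rose from 982 and 1208 to 1964 and 1983 CPM, a change of 0.85 (SE 0.149, adjusted p = 0.00712). Nop56, a core protein of box C/D snoRNPs, had 329 and 446 CPM untreated and 521 and 591 CPM treated. Its change of 0.52 (SE 0.143) did not pass, with an adjusted p of 0.0550. Its partner Nop58 changed by 0.26 (SE 0.154, adjusted p = 0.387) and fibrillarin (Fbl) by 0.23 (SE 0.116, adjusted p = 0.317). The H/ACA proteins Nop10 (0.19, SE 0.122, adjusted p = 0.445) and Dkc1 (0.01, SE 0.124, adjusted p = 0.974) did not pass.

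The small subunit group held 5 of the 8 risers, with 25 members tested and a median of 0.17. Pdcd11, the homologue of yeast Rrp5, which acts in the assembly of both subunits, rose most. It had 14.5 (A) and 24.3 (B) CPM untreated and 55.6 and 60.6 CPM treated, from 291, 435, 419 and 848 counts. The change was 1.59 (SE 0.227, adjusted p = 0.00351). The untreated replicates differed more than the treated ones, and all treated values exceeded all untreated ones. Utp20, a large scaffold protein of pre-ribosomes, rose from 127 and 154 to 244 and 261 CPM (0.85, SE 0.145, adjusted p = 0.00630). Utp14b, a retrogene copy of the processome factor Utp14a, rose from 34.1 and 33.1 to 58.4 and 52.5 CPM (0.72, SE 0.129, adjusted p = 0.00779). Utp14b lies within the span of Acsl3, whose own footprints changed by 0.14 (adjusted p = 0.758), and how reads common to both Utp14 copies were assigned is not given. Bms1, the processome GTPase, rose from 77.1 and 95.1 to 131 and 133 CPM (0.62, SE 0.128, adjusted p = 0.0155), and Rrp12, a factor for export of pre-ribosomes, from 113 and 120 to 160 and 158 CPM (0.45, SE 0.106, adjusted p = 0.0285). In each of these genes the 2 groups did not overlap, which 2 libraries per group can also give without a change. Imp3 (0.01, SE 0.159) and Imp4 (-0.02, SE 0.122), which belong to the same processome complex, did not pass, nor did Utp15 (-0.15, SE 0.119), the lowest of the group. At an unadjusted p under 0.05, where 10.1% of all genes were higher and 8.98% lower, 12 of the 25 were higher and 0 lower.

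**Figure D2:**
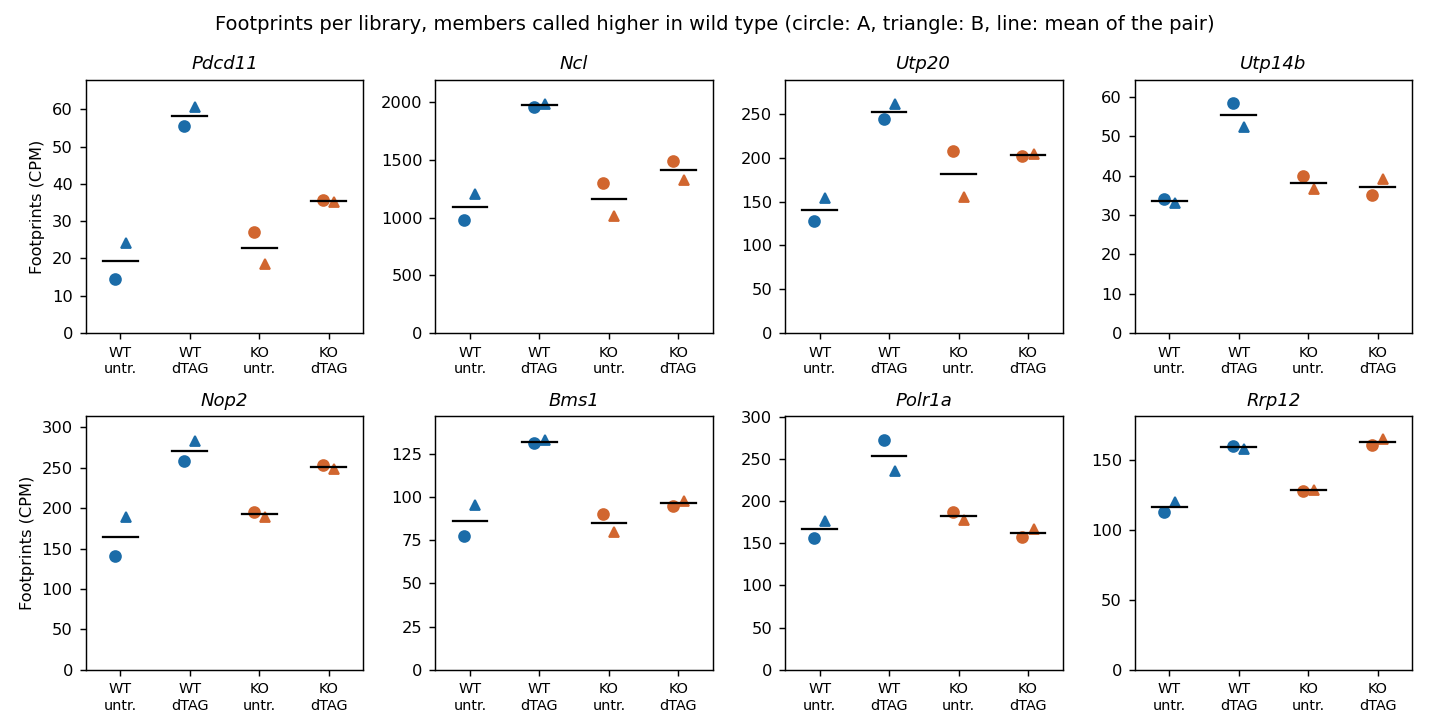
Footprint levels in CPM (vertical axis, from 0) of the 8 members that rose in wild-type cells, per library in each of the 4 groups (circle A, triangle B, line the mean of the pair). In wild type each gene's treated libraries lie above its untreated ones. Polr1a in the knockout has both treated libraries below the untreated ones.

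Of 15 large subunit factors, 1 rose, 5 were higher and 0 lower at an unadjusted p under 0.05 (all genes 10.1% and 8.98%), and the median was 0.12. Nop2, an rRNA methyltransferase of the large subunit pathway, went from 141 and 189 to 259 and 283 CPM (0.72, SE 0.135, adjusted p = 0.0100). Rbm28, the homologue of yeast Nop4, had 89.5 and 97.0 CPM untreated and 136 and 120 CPM treated. Its change (0.45, SE 0.130, adjusted p = 0.0668) did not pass. The 3 proteins of the Pes1-Bop1-Wdr12 complex gave 0.34 (SE 0.105, adjusted p = 0.0907) for Pes1, 0.09 (SE 0.124, adjusted p = 0.771) for Bop1 and -0.08 (SE 0.191, adjusted p = 0.881) for Wdr12. Rrs1, which helps place the 5S particle, changed by 0.06 (SE 0.130, adjusted p = 0.850), and Rrp8, an rRNA base methyltransferase, was lowest at -0.25 (SE 0.121, adjusted p = 0.291).

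The exosome differed in sign from the other roles. None of its 9 tested genes passed, 2 of the 9 lay above 0 (all genes 48.8%), and the median was -0.16. The ring subunit Exosc7 was lowest, with 64.3 and 54.4 CPM untreated and 47.8 and 45.0 CPM treated (-0.36, SE 0.128, adjusted p = 0.136). The nuclear exonuclease subunit Exosc10 had 132 and 115 CPM untreated and 142 and 137 CPM treated (0.18, SE 0.118, adjusted p = 0.460), and the ring subunit Exosc9 was highest (0.19, SE 0.120, adjusted p = 0.416). The difference between the exosome and the other roles was not tested.

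These calls depended on the libraries and on the fit. The 8 libraries of both genotypes share 1 dispersion per gene. With the 4 wild-type libraries fitted alone, 0 members and 19 of all 11937 genes passed, and 20 members had an unadjusted p under 0.05, against 14.5% of all genes. Pdcd11 then had an adjusted p of 0.0546. Without untreated A the count of risers was 2, without treated A 4, without treated B 5 and without untreated B 10, while calls over all genes in either direction went from 599 to 197, 237, 334 and 659. Pdcd11 passed in all 4 of these fits, with changes of 1.26 to 2.00. Utp20 and Ncl missed only without untreated A (adjusted p = 0.0507 and 0.0521), and Utp14b only without treated A (adjusted p = 0.0555). Nop2 and Polr1a missed in 2 of the 4, with adjusted p up to 0.0711 and 0.0890, and Bms1 and Rrp12 in 3 of the 4, with adjusted p up to 0.127 and 0.159. DESeq2 gave 10 risers, and 1 faller, Polr1h.

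A wider list of 110 further ribosome assembly genes was read in the same way. In wild-type cells 22 rose (20%) and 0 fell, with a median of 0.20, against 2.94% and 1.94% of all genes. Like the members, this list was chosen with earlier results of these data known. Mdn1, the giant AAA ATPase that remodels large subunit precursors, rose by 1.13 (SE 0.150, adjusted p = 0.00215), from 92.2 and 122 to 230 and 238 CPM. Taf1d, a subunit of the RNA polymerase I factor SL1, rose by 0.98 (SE 0.138, adjusted p = 0.00260). The next by adjusted p were the RNA helicase gene Ddx21 (0.83), Urb1 (0.68), the nucleolar GTPase gene Gnl2 (0.66) and the exonuclease gene Xrn2 (0.59).

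Footprints per RNA before treatment were compared next, as the log2 ratio of footprint CPM to RNA CPM in untreated wild-type cells. This ratio removes gene length in part only, since RNA reads cover whole transcripts. The median was -0.51 over 60 members and -0.61 over 12887 genes. It was 0.51 for the exosome, all 9 of whose genes lay above the median of all genes, 0.13 for the snoRNP group, -0.25 for RNA polymerase I, -0.41 for the small subunit and -0.88 for the large subunit, with 2 of 15 above. Fbl was highest at 2.09, at percentile 93.7 of all genes. Its RNA was 78.7 and 65.0 CPM against 328 and 353 CPM of footprints, and the way reads common to several loci were counted is not given.

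Pdcd11 had the lowest ratio of all members, -4.34 in A and -3.58 in B, at percentile 2.32 of all genes, with 264 and 260 CPM of RNA. Wdr12 (-3.29) and Polr1d (-3.18) followed. Pdcd11, Wdr12 and Polr1d each overlap another annotated gene, as do some members with high ratios, such as Exosc8 and Nol7. How reads in such overlaps were assigned is not given. The other risers lay at -2.08 (Bms1), -1.76 (Nop2), -1.64 (Utp20), -1.45 (Polr1a), -1.42 (Ncl), -0.94 (Rrp12) and 1.20 (Utp14b). Thus 7 of the 8 lay below the median of all genes. The ratio and the change use the same untreated footprint libraries, so a low untreated value enters both, and this is a description only.

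**Figure D3:**
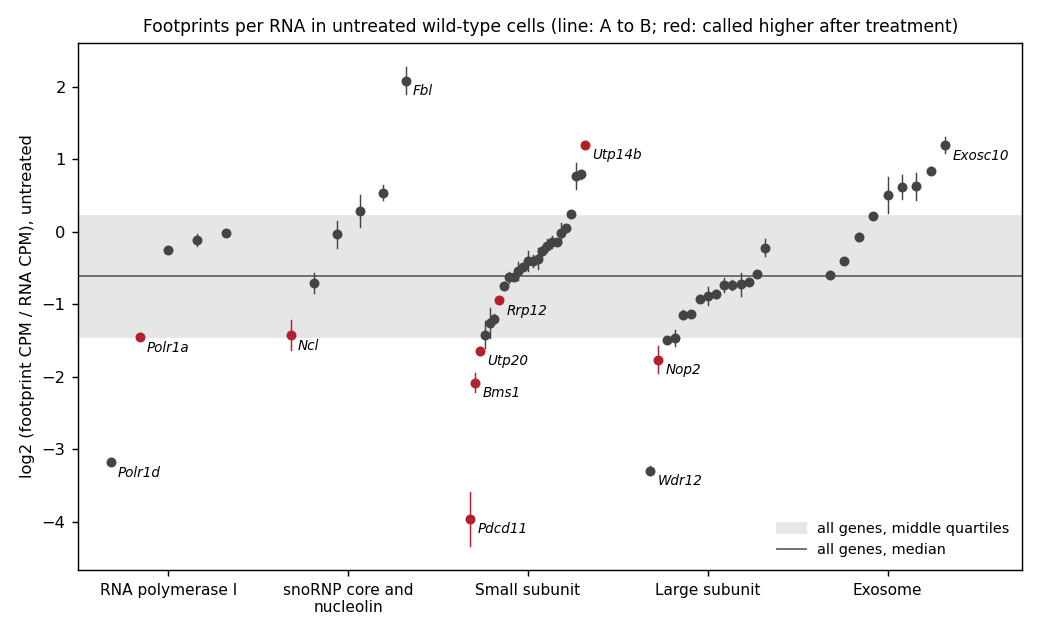
The vertical axis is the log2 ratio of footprint CPM to RNA CPM in untreated wild-type cells for 60 members by role, each point the mean of A and B and each line the span between them. Red marks the 8 members that rose after treatment. Pdcd11 is lowest at -3.96 and Fbl highest at 2.09, and the grey band spans the middle quartiles of all genes.

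RNA from the same treatment showed no member change that passed. Of 61 members, 0 were called in either direction by edgeR and 0 by DESeq2, where 0.163% of 15955 genes were called by edgeR. The member changes ran from -0.18 to 0.17 with a median of -0.01. Without adjustment, 2 members rose at p under 0.05 (Utp25, 0.17, and Utp20, 0.10), against 2.79% of all genes, and none fell. Pdcd11 RNA was 264 and 260 CPM untreated and 272 and 271 CPM treated, a change of 0.05 (SE 0.047). Ncl RNA changed by -0.02 (SE 0.041), Nop2 by 0.01 (SE 0.044), Bms1 by -0.01 (SE 0.046) and Polr1a by 0.04 (SE 0.046). Utp14b had the lowest RNA change, -0.18 (SE 0.127), from 13.3 and 12.8 to 11.1 and 11.9 CPM. Without untreated RNA library B, which leaves a single untreated RNA library, the Utp20 RNA change was 0.18, against 0.10 with all libraries.

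Footprints per RNA, tested over the 8 wild-type libraries as an assay-by-treatment interaction, rose for 4 of 60 members and fell for none. Over 12887 genes, 0.784% rose and 0.691% fell. The 4 were Pdcd11 (1.54, SE 0.245, adjusted p = 0.0216), Utp14b (0.90, SE 0.157, adjusted p = 0.0267), Ncl (0.87, SE 0.161, adjusted p = 0.0317) and Utp20 (0.75, SE 0.149, adjusted p = 0.0418). They are among the 8 footprint risers, whose libraries this test shares. The other 4 risers missed the threshold: Bms1 at 0.62 (adjusted p = 0.0635), Rrp12 at 0.47 (adjusted p = 0.0699), Nop2 at 0.71 (adjusted p = 0.0800) and Polr1a at 0.56 (adjusted p = 0.0867). The median over the members was 0.11, against -0.00 over all genes, and 48 of 60 (80%) lay above 0, against 49.8% of all genes. Among the 110 further assembly genes 11 rose and 0 fell, with a median of 0.21. With any one of the 4 RNA libraries left out, its group held a single RNA library, and no call remained among the members or over all genes. Pdcd11 then kept changes of 1.52 to 1.55 with adjusted p of 0.151 to 0.176. Without untreated footprint library B, the changes were 1.95 for Pdcd11, 1.02 for Ncl, 0.89 for Utp20 and 0.87 for Utp14b. Without treated footprint library A, they were 1.59 for Pdcd11, 0.87 for Ncl, 0.82 for Utp14b and 0.79 for Utp20. Polr1d then changed by -1.29, against -0.64 (SE 0.359, adjusted p = 0.480) with all libraries.

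**Figure D4:**
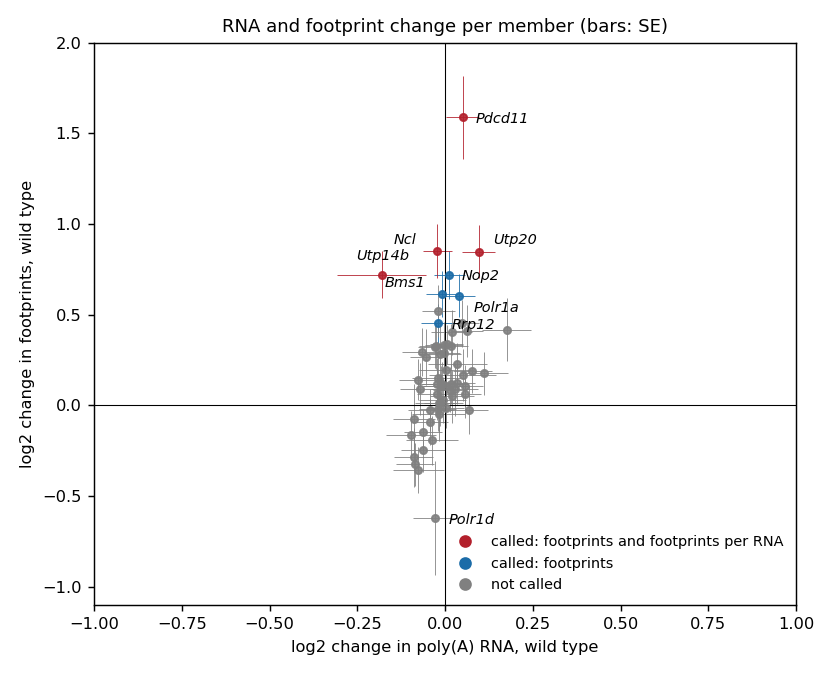
Each point is 1 of 60 members in wild-type cells, with the log2 change in poly(A) RNA on the horizontal axis, the log2 change in footprints on the vertical axis and bars of 1 SE. Red points passed for footprints and for footprints per RNA, blue points for footprints alone. The points spread along the vertical axis up to 1.59 (Pdcd11) and stay between -0.18 and 0.17 on the horizontal one.

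The same hour of treatment was then read in Gcn2 knockout cells. Of 64 members 1 rose (1.56%), Nop56, and 4 fell (6.25%), Imp3, Rrp36, Rbm28 and Exosc2. Over all genes 3.16% rose and 5.71% fell, so the member shares lie near those of all genes. The median was 0.09 over the members and 0.04 over all genes. None of the 8 wild-type risers passed in the knockout in this fit. With the knockout fitted alone, 3 of them did: Pdcd11 (0.60, adjusted p = 0.0308), Nop2 (0.35, adjusted p = 0.0262) and Rrp12 (0.31, adjusted p = 0.0450). Pdcd11 also passed with no filter on low counts (adjusted p = 0.00463) and Rrp12 with a replicate block (adjusted p = 0.0435). Nop56 rose from 333 and 358 to 517 and 521 CPM (0.59, SE 0.143, adjusted p = 0.0223), close to its wild-type change of 0.52. Its snoRNP partners Nop58 (0.12, SE 0.154) and Fbl (0.13, SE 0.116) did not pass.

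Imp3, a processome protein that binds the U3 snoRNA, fell from 96.8 and 102 to 62.5 and 65.8 CPM (-0.63, SE 0.160, adjusted p = 0.0268). Rrp36, another early small subunit factor, fell from 41.4 and 42.6 to 27.8 and 26.6 CPM (-0.63, SE 0.127, adjusted p = 0.00901). Rbm28 fell from 124 and 99.9 to 72.5 and 72.6 CPM (-0.63, SE 0.131, adjusted p = 0.0106). Exosc2, a cap subunit of the exosome, fell from 83.7 and 96.5 to 66.4 and 66.3 CPM (-0.44, SE 0.117, adjusted p = 0.0327). In all 5 genes the treated and untreated libraries were apart, which adds no support to calls made from the same values. Exosc2 in wild-type cells changed by -0.33 (SE 0.117, adjusted p = 0.140), Imp3 by 0.01 and Rrp36 by 0.03.

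**Figure D5:**
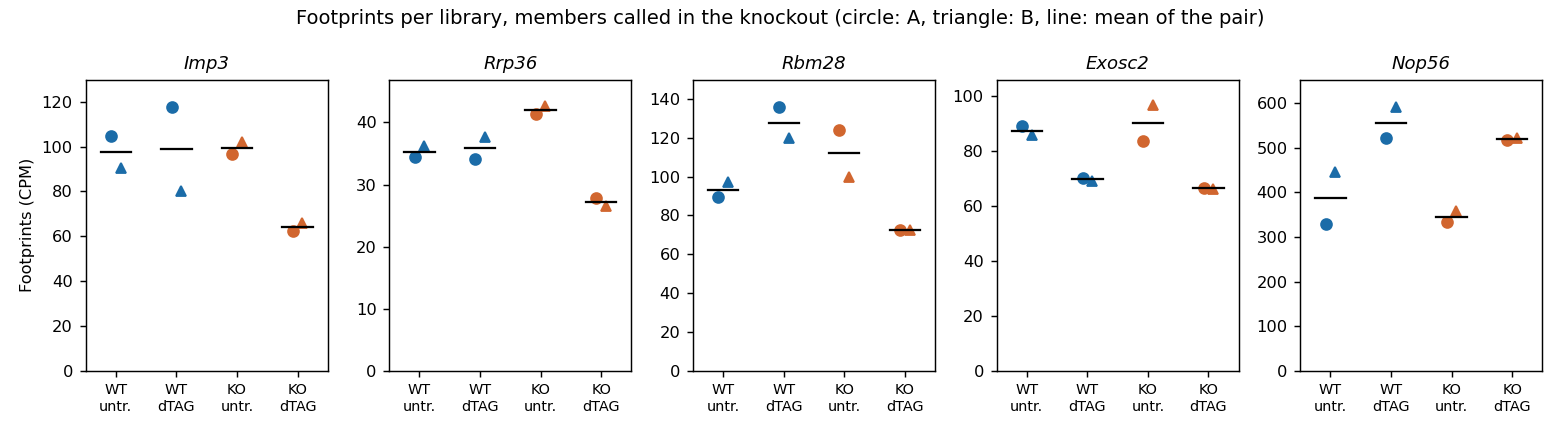
Footprint levels in CPM (vertical axis, from 0) of the 5 members that passed in Gcn2 knockout cells, per library in the 4 groups (circle A, triangle B, line the mean of the pair). Imp3, Rrp36, Rbm28 and Exosc2 are lower and Nop56 higher in both treated knockout libraries.

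The knockout values of wild-type risers are given as a description, since genes picked as high in one group tend to be lower in another by the choice alone. Pdcd11 had 27.0 and 18.5 CPM untreated and 35.6 and 35.0 CPM treated, a change of 0.64 (SE 0.225, adjusted p = 0.107). Ncl changed by 0.28 (SE 0.149, adjusted p = 0.269), Nop2 by 0.38 (SE 0.134, adjusted p = 0.0964) and Bms1 by 0.19 (SE 0.128, adjusted p = 0.399). Rrp12 changed by 0.35 (SE 0.105, adjusted p = 0.0588), Utp20 by 0.16 (SE 0.143, adjusted p = 0.532) and Utp14b by -0.04 (SE 0.129, adjusted p = 0.893). Polr1a went from 187 and 178 to 158 and 167 CPM, a change of -0.17 (SE 0.118, adjusted p = 0.415). Dkc1 (-0.37, adjusted p = 0.0891), Polr1f (0.51, adjusted p = 0.0650) and Polr1h (-0.36, adjusted p = 0.143) did not pass.

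With 1 knockout library left out at a time, calls were fewer in each of the 4 fits, among the members and also over all genes. Nop56 and Imp3 missed in all 4, with adjusted p of 0.0842 to 0.211 and 0.110 to 0.196. Rrp36 passed in 2, without untreated A or B. Rbm28 passed in 1 fit, without untreated B, and Exosc2 in 1, without untreated A. With the knockout libraries fitted alone, 6 members rose and 6 fell, and calls over all genes went from 1089 of 12267 to 1893 of 11955. Among the 110 further assembly genes 5 rose and 5 fell, with a median of 0.08. These shares, 4.55% each, lie near those of all genes, 3.16% and 5.71%. Those that rose were Taf1d (0.99), Mdn1 (0.82), Gtpbp4 (0.56), Tsr1 (0.48) and Xrn2 (0.46). Those that fell were Nob1, the nuclease that makes the final cut of small subunit rRNA (-1.01), Sbds, which readies the large subunit (-0.69), Isg20l2 (-0.51), Krr1 (-0.50) and Noc4l (-0.47).

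Whether the response differed between genotypes was tested as the difference of the changes, knockout minus wild type. By edgeR 0 members passed, where 0.0489% of all genes did. Without adjustment 11 of 64 members (17.2%) were lower in the knockout at p under 0.05 and 0 were higher, against 5.22% lower and 4.80% higher over all genes. The member median was -0.09, against 0.01. The difference was greatest for Rbm28, at -1.08 (SE 0.184, adjusted p = 0.0656), whose change was 0.45 in wild type and -0.63 in the knockout. Pdcd11 gave -0.95 (SE 0.318, adjusted p = 0.332) and Polr1a -0.77 (SE 0.167, adjusted p = 0.144). Imp3 gave -0.64 (SE 0.225, adjusted p = 0.348), Ncl -0.57 (SE 0.210, adjusted p = 0.372) and Bms1 -0.43 (SE 0.180, adjusted p = 0.443). The other 5 were Nol8 (-0.88), Utp14b (-0.76), Utp20 (-0.68), Rrp36 (-0.66) and Nol11 (-0.38), named because of these values. Several of the 11 are wild-type risers, whose wild-type change enters the difference. The risers Nop2 (-0.33, SE 0.190, adjusted p = 0.599) and Rrp12 (-0.11, SE 0.149, adjusted p = 0.871) were not among the 11. Nop56 (0.07, SE 0.201), Bop1 (0.08, SE 0.175) and Rrs1 (0.16, SE 0.184) had differences within 1 SE of 0, which does not show that the genotypes respond alike. DESeq2 called 3 members lower: Rbm28 (adjusted p = 0.000170), Polr1a (0.00600) and Utp14b (0.0379). Rbm28 passed in edgeR without treated wild type B (-1.20, adjusted p = 0.0353) or untreated wild type B (-1.14, adjusted p = 0.0406). Of the 110 further assembly genes 0 passed, and 20 were lower and 0 higher at an unadjusted p under 0.05.

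Before treatment, the genotypes showed no member difference that passed. By edgeR and by DESeq2, 0 of 64 were called, where edgeR called 0.00815% of all genes. Without adjustment 1 member was higher in the knockout, Utp20 (0.37, SE 0.144, adjusted p = 0.744), and 1 lower, Dkc1 (-0.29, SE 0.124, adjusted p = 0.792), against 3.32% and 2.66% of all genes. Utp20 had 127 and 154 CPM in wild-type and 208 and 155 CPM in knockout libraries, with knockout B next to the wild-type range. Rbm28, with 89.5 and 97.0 CPM in wild type and 124 and 99.9 CPM in the knockout, gave 0.26 (SE 0.129, adjusted p = 0.819).

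Features of the genes themselves were also read from the RefSeq gene table, in which 62 members were found on 18 chromosomes. Annotated snoRNA genes lay inside 5 of 61 protein-coding members (8.2%), against 372 of 21900 protein-coding genes (1.7%). They were Nop56 (5 snoRNA genes), Nop58 (4), Ncl (2, Snora75 and Snord82), Nop53 (1) and Dkc1 (1). Of these 5 host genes Ncl rose in wild-type and Nop56 in knockout cells, and the other 3 did not pass in either. In addition 13 members overlap another protein-coding gene, such as Nop56 with Idh3b and Bop1 with Mroh1 and Scx, and how reads in such overlaps were assigned is not given.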

How the data were processed

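The deposited values are raw read counts per gene symbol, 1 table for footprints and 1 for RNA. Per the submitters' processing notes the tools were CASAVA 1.4, cutadapt and HISAT2 2.1.0, with mm10. For the counting tool, annotation, use of strand, multi-mapping reads and the part of the transcript over which footprints were counted, details were not given in the sources used here. Per the labels' protocols, lysates were digested with RNase and footprints taken from gradient-isolated ribosomes.

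Counts were analysed with edgeR 4.0.16 (limma 3.58.1, R 4.3.3): filterByExpr with a minimum count of 10, TMM, robust quasi-likelihood fits, Benjamini-Hochberg adjustment over all genes tested, threshold 0.05, two-sided. The 8 footprint libraries were fitted by group (4 residual degrees of freedom) and the 4 RNA libraries alone (2). For footprints per RNA, TMM was computed within each assay, and 82 footprint symbols were joined to RNA through synonyms. The prior count for CPM ratios was 2. DESeq2 1.42.0, RLE scaling, no filter, a replicate block (one effect per letter, or one per letter within each genotype), each genotype alone and leaving out each library were alternatives. The scripts were tested on simulated counts. Replicates differed beyond counting error (chi-squared per degree of freedom 2.88 to 25.2).

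The members and lists were chosen with earlier results of these data known. Named genes were 18 fixed members, called members, the highest and lowest per role, and up to 6 called further assembly genes per direction. Polr1h in wild type, the 5 last genes of the genotype difference and genes named for an alternative were chosen after their values were seen.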

Additional observations from a re-analysis of the deposited data

How the results depend on the processing

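Risers in wild-type footprints (8) were 10 with DESeq2, 8 with RLE scaling and 10 with no filter, 21 with a replicate block within genotype, 0 with wild type fitted alone and 2 to 10 with 1 library left out. Fallers (0) were 1 with DESeq2, no filter or a replicate block, 5 with the block within genotype and 0 to 1 with 1 library left out. In the knockout, risers (1) were 2 with DESeq2, 3 with no filter or a replicate block, 9 with the block within genotype, 6 with the knockout alone and 0 with any 1 library left out. Fallers (4) were 8 with the block within genotype and 0 to 3 with 1 library left out. Members lower in knockout minus wild type (0) were 3 with DESeq2, 6 with no filter, 1 with a replicate block, 9 with the block within genotype and 0 to 1 with 1 library left out. RNA risers (0) were 0 to 1 with 1 library left out. Members higher in footprints per RNA (4) were 8 with DESeq2, 7 with no filter, 20 with a replicate block and 0 to 10 with 1 library left out, and those lower (0) were 0 to 1. Settings not named for a count did not all leave it unchanged. Members called in the knockout in either direction were 7 with DESeq2, 9 with no filter or a replicate block and 12 with the knockout alone. In wild-type footprints they were 12 with a replicate block. Calls over all genes, in either direction, moved too. In wild-type footprints they were 4.88% in the reported fit, 6.57% with DESeq2, 6.36% with no filter, 7.59% with a replicate block, 17.2% with the block within genotype and 0.159% with wild type alone. In the knockout they were 8.88%, 9.72%, 10.1%, 12.7%, 25.7% and 15.8% in the same order, the last with the knockout alone. For knockout minus wild type they were 0.0489%, 0.946%, 1.16%, 0.318% and 5.98%, in the same order up to the block within genotype. For footprints per RNA they were 1.47%, 3.38% with DESeq2, 2.76% with no filter and 12.1% with a replicate block. Member counts under a setting are thus to be read against these shares. With 1 library left out, its group holds 1 library, and calls over all genes moved as well. The cause of these shifts was not tested.

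The letters A and B were not used as pairs, since the labels name no shared batch and there are 2 per group. Deviations of the same letters from their group means correlated across genes with r = 0.49 in wild-type footprints, 0.101 in knockout footprints and 0.0147 in RNA. No value changed sign where it was called. Treated wild type A, with 7874804 counts, limits genes such as Polr1d, which had 68 and 52 counts in the treated wild-type libraries.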
